A study of Bos taurus with 60 samples.

Results

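A group of 7 genes of glucose use and lactose synthesis was followed in bovine mammary tissue from late lactation into the dry period: SLC2A1, HK2, UGP2, B4GALT1, PFKM, ALDOC and PDHA1. They were listed by name and found by their symbols. All 7 were among the 25223 loci counted, each at a locus that holds no other gene. The tissue was biopsied from 12 multiparous Holstein cows 3 days before milking ended (D-3) and 3, 7, 14 and 25 days after this dry-off (D3, D7, D14 and D25). The same cows were sampled each time, which gives 60 samples. From dry-off on, 6 cows were heat-stressed (HT), with shade only, and 6 were cooled (CL), with shade, fans and soakers, so at D-3 neither treatment had begun. All cows were pregnant and dried off ahead of the next calving.

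In the lactating mammary gland glucose is mainly spent on lactose, the sugar that draws water into milk. Glucose crosses the membrane through transporters such as SLC2A1 (GLUT1) and is trapped as glucose 6-phosphate by hexokinases such as HK2. From there it goes either to UDP-glucose, made by UGP2, and on to UDP-galactose, or down glycolysis through PFKM, the muscle-type subunit of phosphofructokinase, and aldolases such as ALDOC. In the Golgi, B4GALT1 joins galactose to glucose when it is bound to α-lactalbumin (LALBA), and the pair is called lactose synthase. PDHA1 is a subunit of the pyruvate dehydrogenase complex, which feeds the carbon of glycolysis into the citric acid cycle and fatty acid synthesis. Milk synthesis stops at dry-off and the gland involutes before it is rebuilt for the next lactation.

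Levels are given as CPM, the count of a gene scaled to the size of its library, after TMM scaling, which sets the bulk of loci level between libraries, and differences as log2 fold changes from edgeR's quasi-likelihood test. A locus was called at a false discovery rate (FDR) of at most 0.05 over the 14714 loci tested. The main fits between days left the cow out, although the same cows were sampled each time. A fit with the cow as a block is given where it changed a call. Total counts ran from 20525083 to 26183990 per library, and the lowest member level, for HK2, was 9.97 CPM, so counting error was small beside the spread between cows. In biopsies, fewer cells of a type and less RNA per cell cannot be told apart. Library facts that touch the results concern D-3, D14 and a pair of cows. At D-3 the milk protein genes CSN1S1, CSN2 and LALBA together took 40.2 to 49.8% of counts in 5 libraries (3 CL, 2 HT) and 0.190 to 8.03% in the other 7 (3 CL, 4 HT). The milk protein genes CSN1S2, CSN3 and PAEP could not be paired with a locus, so milk protein shares given here are lower bounds. The D14 library of CL cow 7965 held 6.19 CPM for the summed epithelial keratins KRT19 and KRT7, against at least 507.8 CPM in each of the other 59 (for KRT19 alone 3.36 against at least 231.4), and 5396 CPM for the fibroblast gene DCN, against at most 1626. The profiles of HT cows 8513 and 8660 at D14 and D25 resembled each other's earlier samples more than their own (mean r of deviations from the group means 0.359 to 0.544 against -0.01 to 0.15), so an exchange of labels is possible. It would not touch comparisons that leave the cow out.

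SLC2A1, the glucose transporter, was at its highest before dry-off and lower at every later day. At D-3 it ran from 24.7 to 235 CPM with a median of 53.5. At D3 the range was 25.8 to 75.3 CPM with a median of 34.6, and at D7, D14 and D25 the medians were 40.6, 38.1 and 40.5 CPM. Between cows the spread was widest at D-3, and the ranges of D-3 and the dry days overlapped. The fall from D-3 to D3 was 1.31 ± 0.26 on the log2 scale (SE, 12 cows, FDR = 3.7e-04), a 2.48-fold lower level, and 10 of 12 cows were lower at D3. At D25 it was still lower than at D-3, by a log2 fold change of -1.37 ± 0.26 (FDR = 2.8e-04), with 7 of 12 cows lower.

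HK2, the hexokinase, fell at dry-off and had partly returned by D14. It ran from 11.2 to 91.9 CPM at D-3, with a median of 24.1, and between 9.97 and 21.4 CPM at D3, with a median of 14.6. The median was 18.9 CPM at D7, 22.8 at D14 and 21.2 at D25. The log2 fold change was -1.21 ± 0.26 for D3 vs. D-3 (FDR = 7.4e-04), with 8 of 12 cows lower. For D25 vs. D-3 it was -0.77 ± 0.25 (FDR = 0.033), with 7 of 12 lower. The latter was no longer called with the cow as a block (-0.61, FDR = 0.060) or in a fit of only the 24 samples of both days (FDR = 0.11). It was also lost without cow 8541, 8564, 8647 or 8713 (FDR = 0.064 to 0.16). From D3 to D14 all 12 cows went up by the labels as given, with a fitted difference of 0.83 ± 0.25 that narrowly missed the threshold (FDR = 0.0504). If the D14 labels of cows 8513 and 8660 were exchanged, cow 8513 would go down, from 20.5 to 19.4 CPM. The D14 library of cow 7965, which nearly lacked keratin counts, held the highest dry-period value, 70.2 CPM, and without it the difference from D3 was 0.60 (FDR = 0.16).

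UGP2, which makes UDP-glucose, and B4GALT1, the catalytic part of lactose synthase, fell together. UGP2 ran from 176.6 to 1072 CPM at D-3 with a median of 291.5, and its medians at D3, D7, D14 and D25 were 192.4, 230.2, 201.0 and 196.5 CPM. B4GALT1 ran from 649.9 to 6466 CPM at D-3 with a median of 1791, and its later medians were 1025, 1457, 1220 and 1301 CPM. D3 vs. D-3 gave -1.18 ± 0.29 for UGP2 (FDR = 0.0036) and -1.17 ± 0.28 for B4GALT1 (FDR = 0.0025), and neither was called in a fit of only the 24 samples of these days (FDR = 0.056 each). Most cows moved down, 11 of 12 for UGP2 and 9 of 12 for B4GALT1. D25 vs. D-3 gave -1.26 ± 0.29 (FDR = 0.0027) and -1.15 ± 0.28 (FDR = 0.0041), with 9 and 8 of 12 cows lower. B4GALT1 nevertheless stayed at 682.3 CPM or more in every dry-period library other than the D14 library of cow 7965, which held 328.2 CPM.

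Both glycolytic enzymes dipped at D3. PFKM ran from 15.5 to 46.2 CPM at D-3 with a median of 23.3, and between 11.7 and 25.98 CPM at D3 with a median of 15.6, and 11 of 12 cows were lower at D3. Its medians at D7, D14 and D25 were 23.7, 21.9 and 22.3 CPM. The change was -0.75 ± 0.14 for D3 vs. D-3 (FDR = 1.7e-04) and 0.53 ± 0.14 for D7 vs. D3 (FDR = 0.025), with 10 of 12 cows higher at D7. The rise was no longer called when cow 8314, 8564, 8603, 8647 or 8660 was left out (FDR = 0.054 to 0.092). At D25 the difference from D-3, -0.33 ± 0.14, did not pass (FDR = 0.11).

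ALDOC, the brain-type aldolase, varied widely between cows throughout. It ran from 32.3 to 267 CPM at D-3 with a median of 122, and fell to 15.0 to 134.6 CPM at D3 with a median of 29.2 (-1.86 ± 0.44, FDR = 0.0024, lower in 11 of 12 cows). Later the range was wide again, up to 238 CPM at D7, 27.2 to 170 CPM at D14 and 25.7 to 212.5 CPM at D25, with medians of 40.1, 35.4 and 48.9 CPM. A few cows made up the upper end. CL cow 8686 held 134.6, 228.2, 63.5 and 212.5 CPM at D3, D7, D14 and D25, and CL cow 8060 held 26.4, 117.1, 128.9 and 204.3 CPM. HT cow 8314 held 15.0, 237.7, 28.4 and 178.9 CPM. HT cow 8660 held 186.2 CPM at D7 and HT cow 8513 170.1 CPM at D14, the pair whose labels may be exchanged. Neither D7 vs. D3 (1.28 ± 0.43, FDR = 0.089) nor D25 vs. D-3 (-0.61 ± 0.43, FDR = 0.36) passed the threshold, though the rise to D7 was called without cow 8686 (1.47, FDR = 0.036) and by DESeq2 (FDR = 0.040).

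PDHA1 had the smallest fall of the 7 at D3. It ran from 88.2 to 271 CPM at D-3 with a median of 110, and between 75.5 and 111.5 CPM at D3 with a median of 95.1. Dry-period medians then lay between 96.5 and 108.3 CPM. D3 vs. D-3 gave -0.64 ± 0.13 (FDR = 3.9e-04, lower in 10 of 12 cows) and D25 vs. D-3 gave -0.53 ± 0.13 (FDR = 0.0038), the latter not called in a fit of only the 24 samples of both days (FDR = 0.061).

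**Figure D1:**
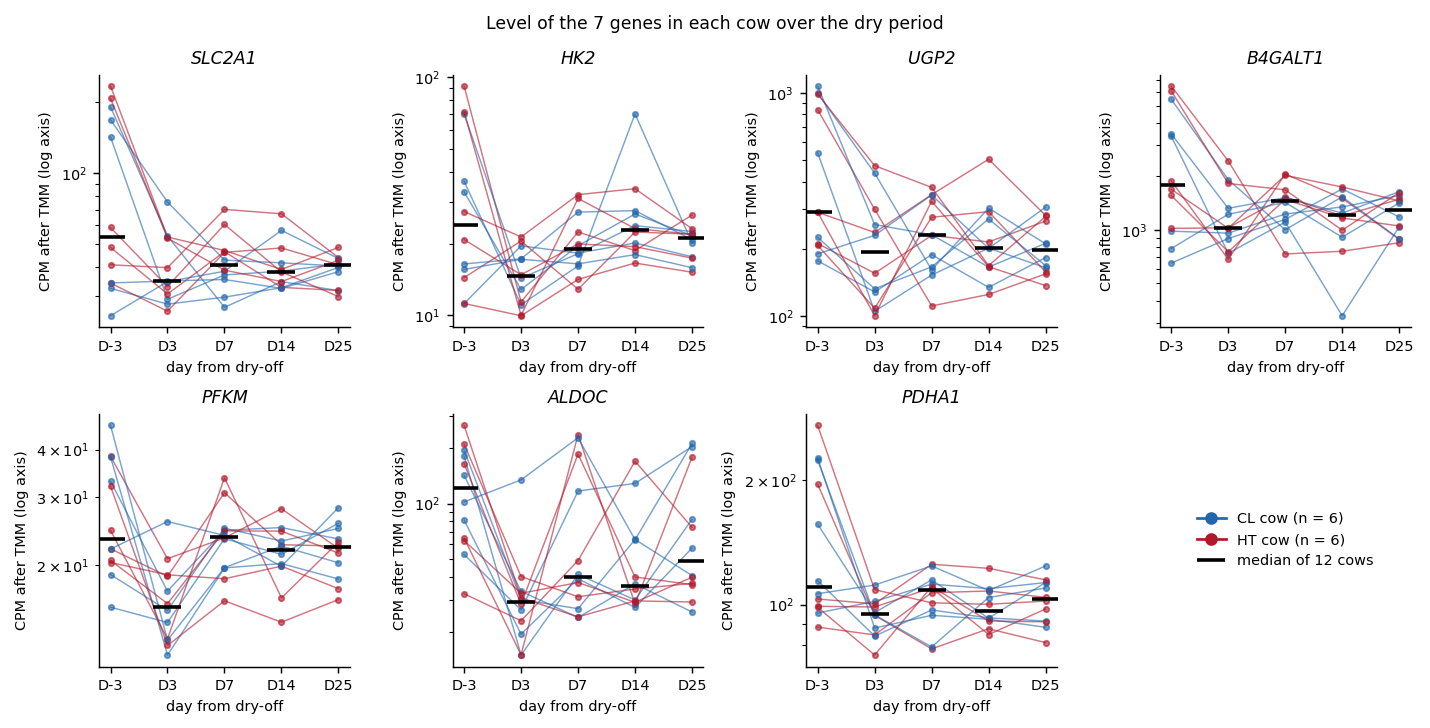
CPM after TMM scaling on a log axis for each of the 7 genes by day from dry-off; each line is a cow (CL blue, HT red, 6 each) and black bars are medians of 12 cows. SLC2A1, UGP2, B4GALT1 and PDHA1 spread widely at D-3 and draw together in the dry period, PFKM dips at D3, and ALDOC stays spread between cows at D7 and D25.

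Counted together, 7 of 7 genes were called lower at D3 than at D-3, where 9.04% of all tested loci were. The median change was -1.18 over the 7 and -0.01 over all loci. Symbols could be paired mostly for loci that head the study's own list for this comparison, so the genes could hardly have failed it and their count is a description. The same D-3 libraries serve D7, D14 and D25 vs. D-3. There 4, 5 and 5 of the 7 were called lower, against 7.12%, 11.3% and 9.16% of all loci. SLC2A1, UGP2, B4GALT1 and PDHA1 were called at all of those days, ALDOC at D14 and HK2 at D25. For each of the former 4 fewer cows were below their own D-3 level than at D3. In that order they were lower in 7, 6, 6 and 6 of 12 cows at D7. By the labels as given, the numbers were 8, 7, 7 and 8 at D14 and 7, 9, 8 and 8 at D25. With the cow as a block, B4GALT1 at D7 (FDR = 0.051) and HK2 at D25 (FDR = 0.060) were no longer called. Without the D14 sample of cow 7965 ALDOC at D14 was not called (FDR = 0.072), while HK2 at D7 was (FDR = 0.031). PFKM, at -0.22 at D7 and -0.36 at D14, was called at D3 alone of the 4 days, and with the cow as a block also at D14 (FDR = 0.042).

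Between dry days edgeR made 1 call, PFKM upward from D3 to D7, where 0.625% of loci were called higher. For the same days DESeq2 called 2, PFKM and ALDOC. Members could be paired mostly through D3 vs. D-3, which shares the D3 libraries. Rises from D3 were thus favoured, and their counts are a description. No member was called for D14 vs. D3 or D25 vs. D3, against 3.43% and 6.02% of loci. In each, 2 members had an unadjusted p under 0.05, as had 2751 and 3234 of the 14714 loci. With the cow as a block PFKM was also called for D25 vs. D3 (0.43, FDR = 0.031). D14 vs. D7 and D25 vs. D7 called 0 of the 7 and 0% of loci, and D25 vs. D14 0 of the 7 and 0.0612% of loci. None of the 7 had an unadjusted p under 0.05 in these 3 comparisons, and DESeq2, run on D14 vs. D7 and D25 vs. D14, called none either. In order of mean level D-3 came first for each gene. The day next in order was called lower than D-3 for SLC2A1, UGP2, B4GALT1 and PDHA1 and not for HK2, PFKM and ALDOC, and no pair of dry days next to each other in that order was called.

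**Figure D2:**
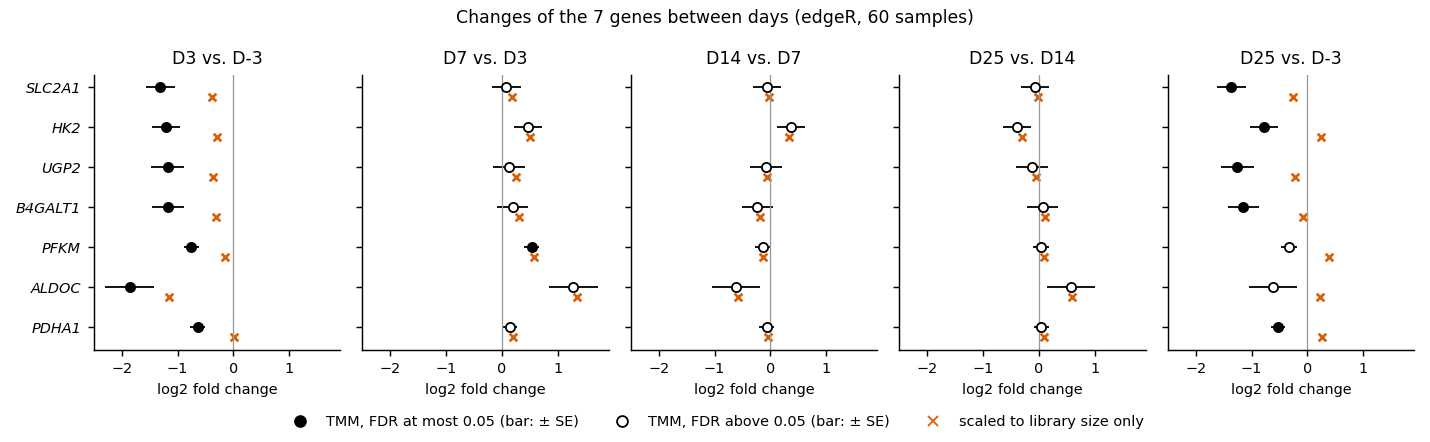
Log2 fold changes of the 7 genes between days after TMM scaling (circles with SE bars, filled where FDR is at most 0.05) and with scaling to library size alone (orange crosses). All 7 are filled and below 0 in D3 vs. D-3, only PFKM is filled in D7 vs. D3, none in D14 vs. D7 or D25 vs. D14, and crosses lie to the right of the circles in both comparisons with D-3.

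At D-3, levels of every member other than ALDOC were higher in each of the 5 cows whose libraries were rich in milk protein counts, which are no group of the study, than in any of the other 7. In those 5 libraries SLC2A1 ran from 142.7 to 235 CPM and in the other 7 from 24.7 to 58.7 CPM. UGP2 ran from 538.5 to 1072 against 176.6 to 291.6 CPM, and B4GALT1 from 3375 to 6466 against 649.9 to 1889 CPM. HK2 (33.0 to 91.9 against 11.2 to 27.3 CPM), PFKM (32.1 to 46.2 against 15.5 to 24.6) and PDHA1 (156.4 to 271 against 88.2 to 114.2) did not overlap either. ALDOC did overlap, at 142.4 to 267 against 32.3 to 165.1 CPM. How many of all loci separate these libraries in the same way was not counted. Members could be paired mostly through D3 vs. D-3, which uses the same libraries, so the separation is a description. From D-3 to D3 each of the 7 genes fell in all 5 of these cows. In the other 7 cows the number that fell ranged from 3, for HK2, to 6, for UGP2, PFKM and ALDOC.

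Without the 5 cows, a choice made after seeing the data that leaves 7, 0 of the 7 genes and 0 of the 14714 loci were called for D3 vs. D-3. An unadjusted p under 0.05 was found for 1 gene and 762 loci. The differences then shrank to -0.27 for SLC2A1, -0.55 for UGP2, -0.39 for B4GALT1, -0.24 for PFKM, -1.01 for ALDOC and -0.10 for PDHA1, and HK2 turned to 0.048. For D25 vs. D-3 they lay between -0.09 and 0.52, and HK2, B4GALT1, PFKM, ALDOC and PDHA1 changed sign. Among these 7 cows, SLC2A1, UGP2, B4GALT1, ALDOC and PDHA1 were each higher at D7 than at D3 in 7 of 7, with differences of 0.53, 0.79, 0.73, 1.68 and 0.26, and none was called (FDR 0.20 to 0.29). In the other 5 cows, SLC2A1, UGP2 and ALDOC were lower at D7 in 4 of 5 and B4GALT1 and PDHA1 in 3 of 5. In the fit of the 7 cows 0 of 14714 loci were called for D7 vs. D3. An unadjusted p under 0.05 was found there for 6 of the 7 genes and 1442 loci. How many loci rose in 7 of 7 cows was not counted. The choice of the members used the D3 libraries, so these counts of cows are a description. Dropping any single cow left 7 of 7 called for D3 vs. D-3.

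**Figure D3:**
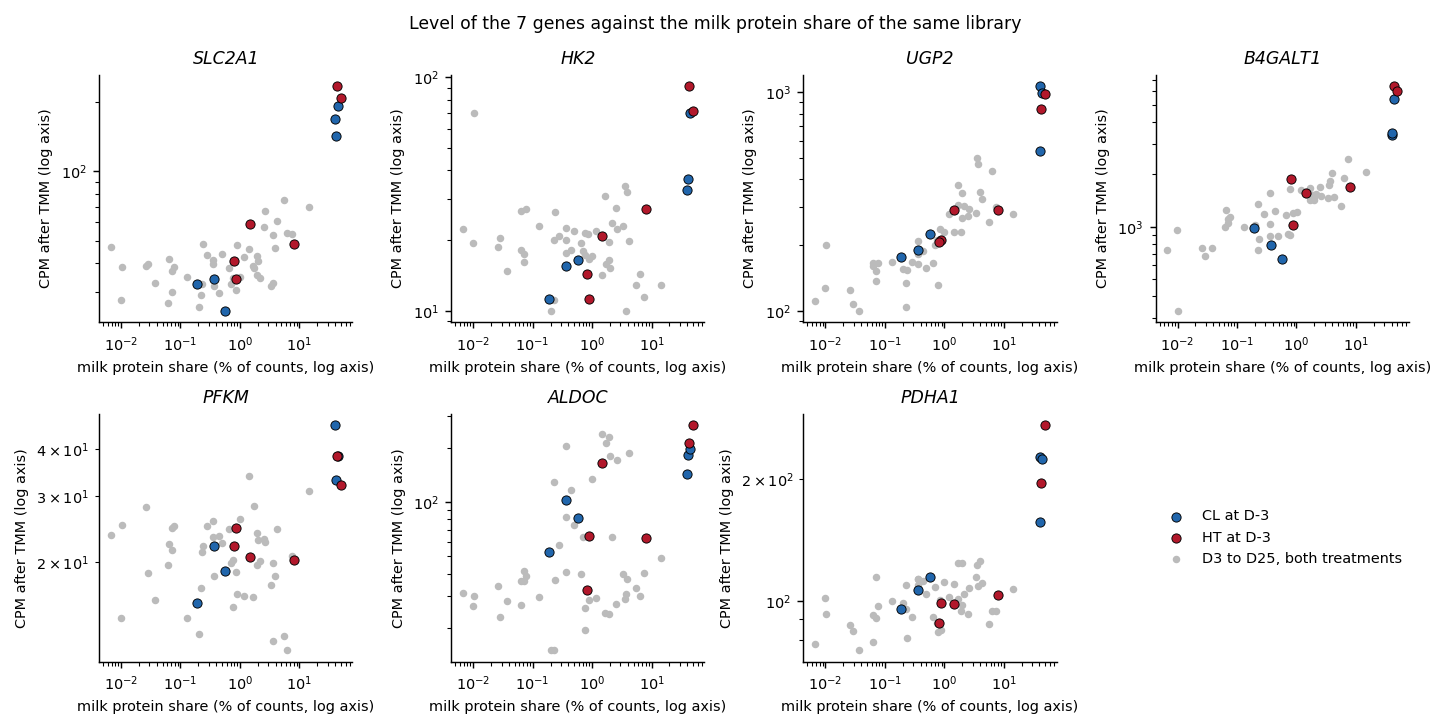
CPM after TMM scaling of each gene against the share of counts on CSN1S1, CSN2 and LALBA in the same library, both on log axes; D-3 libraries are coloured by treatment (CL blue, HT red) and the 48 later ones are grey. At D-3, 5 libraries lie at 40.2 to 49.8% and, for 6 of the 7 genes, above the other 7, which sit among the grey points.

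The size and for some genes the direction of these differences depended on the scaling. Where the paired milk protein genes alone take close to 50% of counts, every other gene has a smaller share of the library, and TMM corrects for this. Its factors were 0.300 to 0.419 in the 5 libraries and 1.02 to 1.21 in the other 7. As CPM without TMM scaling, the ranges of SLC2A1 overlapped, at 59.8 to 85.2 in the 5 and 29.7 to 64.4 in the 7. Those of HK2, UGP2, B4GALT1 and ALDOC overlapped too. Without TMM no member was higher in each of the 5 than in any of the 7. PDHA1 then ran from 65.5 to 88.5 against 89.7 to 137.1, and PFKM from 9.62 to 18.1 against 18.7 to 28.7, lower in the 5 libraries. Scaled to library size alone, D3 vs. D-3 called SLC2A1 (-0.39) and ALDOC (-1.15) only, and PDHA1 turned to 0.017. The median of all loci was then 0.35 and not near 0, and relative to it each of the 7 was still lower, at -0.33 for PDHA1 and -0.74 for SLC2A1. For D25 vs. D-3 the same scaling gave a median of 0.48 over all loci and turned HK2 (0.24), PFKM (0.39), ALDOC (0.23) and PDHA1 (0.26) upward, with PFKM called. Relative to that median all 7 were lower.

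A ratio within a library is free of this choice. Of the planned pairs only B4GALT1 and LALBA, the partners in lactose synthase, could both be paired with a locus. The mean log2 ratio of B4GALT1 to LALBA counts was 0.15 ± 4.25 (SD, n = 12) at D-3 and 4.09 ± 2.75 at D3, and it stayed between 3.89 and 4.46 at the later days. It rose in 10 of 12 cows from D-3 to D3, by 3.95 ± 2.68 on average. LALBA itself ran from 9.90 to 104559 CPM at D-3 and between 0.523 and 654.8 CPM at D3, so its fall was steeper than that of B4GALT1. From D14 to D25 the mean ratio moved by -0.01 ± 2.62, from D7 to D14 by 0.57 ± 3.87 and from D3 to D7 by -0.21 ± 4.78, none beyond its spread (two-sided exact sign-flip p = 0.98, 0.61 and 0.88).

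Markers of other cell types also moved with the days, and their part in the results was not tested. They were mostly paired through the study's list for D3 vs. D-3, so their calls that use D-3 or D3 libraries are a description. Of 5 paired markers of myoepithelium and smooth muscle (ACTA2, MYH11, MYLK, CNN1 and KRT5), 3 were called higher at D3 than at D-3, where 6.03% of all loci were. At D7, 4 were called lower than at D3, where 2.3% of all loci were. Their summed level ran from 567.4 to 3275 CPM at D-3, 1181 to 4044 at D3 and 974.1 to 2389 at D7. Of 3 genes listed as adipocyte markers (ADIPOQ, FABP4 and LPL), FABP4 and LPL were called lower at D3, where 9.04% of all loci were. ADIPOQ was not (-0.84, FDR = 0.21). The study names LPL among regulators tied to lipid synthesis, so its fall cannot be read as a change in adipocytes. The summed level of the 3 lay between 87.2 and 7368 CPM before dry-off and between 50.6 and 266.4 CPM at D3. Its upper end came from LPL, which reached 6826 CPM, against at most 567.9 for FABP4 and 313.0 for ADIPOQ, so the sum says little of ADIPOQ. KRT19 and KRT7 summed to 698.5 to 1798 CPM at D-3 and 732.6 to 5221 CPM at D3, with KRT7 called higher at D3 and lower at D7, and the KRT7 locus joins it with another gene. The endothelial receptor KDR was called lower at D3 (-0.95), and the skeletal muscle myosin MYH2 higher at D3 (2.95) and lower at D7, at no more than 16.7 CPM in any library. At D25, FABP4, LPL and CNN1 were called lower than at D-3, where 9.16% of all loci were, and ADIPOQ was not (0.24, FDR = 0.77). The fibroblast gene DCN was not called at D3 or D25 against D-3. No leukocyte or red cell marker could be paired with a locus.

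No difference between HT and CL was called in the 7 genes. On each of the 5 sampling days, 0 of the 7 and 0% of loci were called by edgeR. The interaction of treatment and time likewise called 0 of the 7 and 0% of loci, and DESeq2 called none of the 7 at any day. At D7, 1 of the 7 had an unadjusted p under 0.05, as had 672 of the 14714 loci. None of the 7 did at the other days or in the interaction. The exception was SLC2A1 at D7. Its CL cows held 26.8 to 42.6 CPM with a median of 36.1 and its HT cows 38.6 to 70.1 CPM with a median of 46.6, and the groups overlapped. The HT level was higher by 0.56 (95% interval 0.20 to 0.91, edgeR FDR = 0.96), which passed a less stringent threshold on the unadjusted p (0.005) and the size of the log2 fold change (0.5). That threshold took 0.319% of loci at D7, and 0.0544%, 0.0204%, 0.0544% and 0.0408% at D-3, D3, D14 and D25, where no member passed it. UGP2 and B4GALT1 also had their largest values of the dry period at D7, at 0.42 (95% interval -0.20 to 1.04) and 0.36 (-0.14 to 0.86). At the same day the milk protein share ran from 0.0628 to 1.96% in CL and from 0.00669 to 14.5% in HT, and the HT cow with the most, 8513, held the highest SLC2A1 level. Without that cow the SLC2A1 difference was 0.45, and with each cow left out in turn it ran from 0.45 to 0.62. The part of the milk protein share in it was not tested.

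How large a treatment difference could have gone unseen varied by gene. For PDHA1 the intervals during the dry period lay within -0.37 and 0.31, and for PFKM within -0.50 and 0.50. For ALDOC they reached from -1.93 to 1.80, and the largest dry-period differences in size, -0.60 at D3 and -0.66 at D25, were within the spread of cows. Single cows carried much of both: without CL cow 8686 they were 0.18 and -0.32, and without HT cow 8314 the value at D25 was -1.26. HK2 at D14 was lower in HT by a log2 fold change of -0.47 (95% interval -1.19 to 0.24), and the value was -0.059 without CL cow 7965, whose library held 70.2 CPM. At D-3, before the treatments, the differences of the 7 ran from -0.17 to 0.38, and the widest interval was that of SLC2A1, from -1.38 to 1.54.

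**Figure D4:**
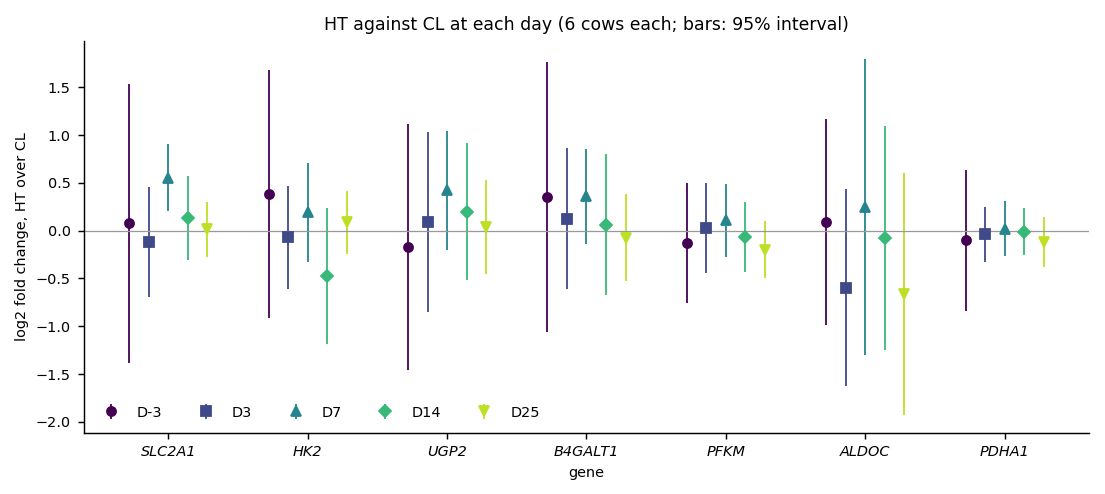
Log2 fold change of HT over CL for each gene and day, from fits of 6 HT and 6 CL cows per day; bars are 95% intervals. All intervals cross 0 other than that of SLC2A1 at D7 (0.20 to 0.91), and they are wide at D-3 and for ALDOC.

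Of 62 genes listed for these pathways, 16 beside the members could be paired with a locus and tested. They too were mostly paired through the study's list for D3 vs. D-3, so their counts in it are a description. In that comparison 9 were called lower, 4 higher and 3 did not pass, where 9.04% of all loci were called lower and 6.03% higher. Among genes of lactose synthesis and galactose use, those called lower were LALBA (-7.14), GALM (-1.93), which converts the forms of galactose and glucose, and SLC35A2 (-0.62), which carries UDP-galactose into the Golgi. At the entry of pyruvate to mitochondria both carrier subunits fell, MPC1 by 1.16 and MPC2 by 1.72 on the log2 scale, as did DLAT (-0.57), another subunit of the pyruvate dehydrogenase complex. PDP2 (-0.87), the phosphatase that switches that complex on, and PC (-1.01), pyruvate carboxylase, fell as well, and so did TALDO1 (-0.52) of the pentose phosphate pathway.

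The 4 that rose were TPI1 (0.56) and BPGM (0.43) of glycolysis and its side branch, PGM1 (0.41), which links glucose 6-phosphate to glucose 1-phosphate, and PGLS (0.42) of the pentose phosphate pathway, whose locus joins it with another gene. Of 19 glycolysis genes listed only 4 could be paired, so the pathway as a whole was not seen. These did not move one way: PFKM and ALDOC were called lower and TPI1 and BPGM higher. PDK4, a kinase that switches pyruvate dehydrogenase off, had 0.94 ± 0.46 at D3 (FDR = 0.17), and from D3 to D25 it fell by 2.01 ± 0.48 (FDR = 0.0060), as PGM1 fell by 0.39 ± 0.12 (FDR = 0.036), where 4.62% of loci were called lower.

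None of the 16 was called for D7 vs. D3, D14 vs. D7 or D25 vs. D14, and none for HT vs. CL. In the former comparisons 5, 1 and 2 had an unadjusted p under 0.05, as had 2436, 257 and 534 of the 14714 loci. For D25 vs. D-3, where 9.16% of all loci were called lower and 3.96% higher, 5 were called lower and none higher: LALBA (-7.59), MPC2 (-1.70), MPC1 (-1.67), PDP2 (-0.97) and SLC35A2 (-0.71). The same 5 were called at D7. Their median at D25 was -0.36 over the 16, against 0.00 over all loci.

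**Figure D5:**
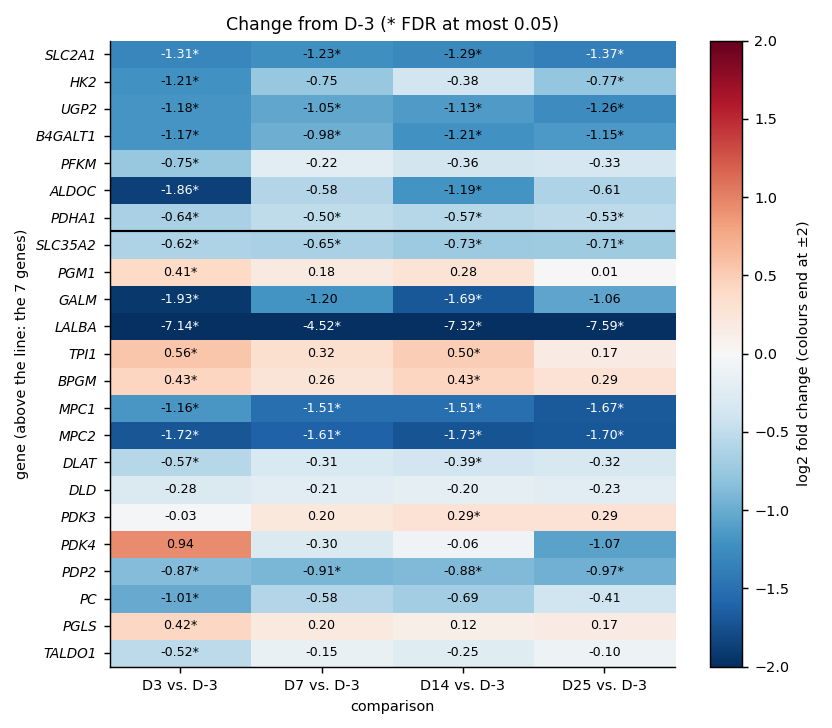
Log2 fold changes from D-3 to D3, D7, D14 and D25 for the 7 genes (above the line) and 16 other paired genes of the pathways (below it), with an asterisk where FDR is at most 0.05. SLC2A1, UGP2, B4GALT1, PDHA1, SLC35A2, LALBA, MPC1, MPC2 and PDP2 are lower with an asterisk at all 4 days, and TPI1, BPGM, PGM1 and PGLS are above 0 at all 4.

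The 7 genes differed in how closely they followed each other. Over 60 libraries the 21 pairwise correlations of log2 CPM ran from 0.27 (HK2 and ALDOC) to 0.84 (UGP2 and B4GALT1). Over the 48 dry-period libraries they ran from -0.30 (HK2 and B4GALT1) to 0.71 (UGP2 and B4GALT1), with a median of 0.22, and PFKM kept 0.60 with ALDOC. These are descriptions across libraries that share cows, scaling and, at D-3, the split in milk protein counts.

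The 3 nearest neighbours of each member were taken by the same measure over 60 libraries, among 3006 other tested loci with a symbol. B4GALT1 went with XDH (r = 0.93), the xanthine dehydrogenase of the milk fat globule coat, CSF2RB (0.92) and SLC38A3 (0.91). UGP2 went with CD36 (0.94), a fatty acid receptor, UBE2Q2 (0.93) and ELL2 (0.92). ALDOC went with ECHDC1 (0.92), PLIN2 (0.90), a coat protein of lipid droplets, and RASSF4 (0.89), and kept 0.91, 0.86 and 0.87 with them in the dry period. SLC2A1 went with UBE2F (0.94), GPAT4 (0.93), an enzyme of glycerolipid synthesis, and ARFIP2 (0.93), and PDHA1 with CYB5B (0.95), ERCC5 (0.94) and CCDC47 (0.93). HK2 had looser neighbours, FKBP14 (0.82), LMAN1 (0.80) and ALDH18A1 (0.80), as did PFKM, with MMACHC (0.86), NIT1 (0.78) and MRPL49 (0.78).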

How the data were processed

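The deposited values are whole-number counts of reads per locus, made by the authors and not normalized. Per their methods, single-ended reads were trimmed, mapped with Tophat (2.0.13), assembled with Cufflinks (2.2.1), merged with the ENSEMBL annotation and counted with htseq-count from uniquely mapped reads. Multi-mapping reads were thus lost, and reads of near-identical isozyme copies could be undercounted. The sources name different genome builds, so no coordinates are given. Loci that join several genes (742) entered once.

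Members and lists were chosen with earlier results of these data known. Symbols came from the part of the study's tables held here, which pairs 3033 loci and mostly those of smallest p for D3 vs. D-3. The genes named were the members, the paired pathway and marker genes, and for each member the 3 symbol loci of highest Pearson r over the 60 samples.

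A locus was tested if it reached 1 CPM in 6 or more of the 60 samples (14714 loci). Counts were scaled by TMM in edgeR 4.0.16 (R 4.3.3). Days were compared by quasi-likelihood F-tests, with 1 mean per day fitted to the 60 samples, HT and CL in the 12 samples of a day, and the interaction in all 60, with Benjamini-Hochberg FDR over all tested loci. SE is the log2 fold change over the root of F, and 95% intervals use the t distribution. The tests were tried on simulated data. Correlations used log2 CPM with a prior count of 2, and the ratio of B4GALT1 to LALBA a prior count of 2 and an exact sign-flip test over cows. The other 9 planned ratios lacked a paired locus. A planned correlation with the milk protein share at D-3 is not given, since those libraries fall into separate clusters.

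Labels give the cow of each sample. Deviations from group means correlated at a mean r of 0.29 between samples of a cow and -0.06 between cows of a treatment, so the cow pairs the samples, and the fit with the cow as a block is an alternative. Others were RLE factors, library size alone, TMM without milk protein loci, no filter, DESeq2 1.42.0, other sets of samples, and each cow left out.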

Additional observations from a re-analysis of the deposited data

Results flagged for a closer look

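Of 70 groups of 6 cows (7 genes, 5 days, HT and CL), 8 had a highest cow whose gap to the next was large against the group's range by Dixon's test on CPM. Chance flags about 1 in 20 groups where values are normally distributed. Gaps at the upper end are wider on the CPM scale than on a log scale, so the count of 8 is not read as an excess. For ALDOC these were CL cow 8686 at D3 (134.6 CPM, next 33.3), HT cow 8513 at D14 (170.1 CPM, next 39.9), CL cow 8060 at D14 (128.9 CPM, next 63.8) and HT cow 8314 at D25 (178.9 CPM, next 74.3). For HK2 they were CL cow 7965 at D14 (70.2 CPM, next 27.5), in the library that nearly lacked keratin counts, and CL cow 8603 at D7 (27.2 CPM, next 19.6). SLC2A1 in CL cow 8603 at D14 (57.0 CPM, next 41.5) and UGP2 in CL cow 8686 at D25 (307.1 CPM, next 211.5) complete the set.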

How the results depend on the processing

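RLE factors, TMM without milk protein loci and no filter on low counts left the count of called members unchanged in each comparison for which they were run. Library size alone gave 2 members called in D3 vs. D-3, 1 in D25 vs. D-3 and 0 in D7 vs. D3, and turned PDHA1 in D3 vs. D-3 (0.017) and HK2 (0.24), PFKM (0.39), ALDOC (0.23) and PDHA1 (0.26) in D25 vs. D-3. DESeq2 gave 2 for D7 vs. D3, adding ALDOC (FDR = 0.040). A fit of only the 24 samples of both days gave 3 for D25 vs. D-3, and for D3 vs. D-3 lost UGP2 and B4GALT1 (FDR = 0.056 each). With the replicate block the count rose from 0 to 1 for D25 vs. D3, and with cows 8513 and 8660 exchanged in that block to 2, and to 1 for D14 vs. D3. The block lost HK2 for D25 vs. D-3 as given above and B4GALT1 for D7 vs. D-3 (FDR = 0.051), added PFKM for D14 vs. D-3 (FDR = 0.042), and changed no other call. Without the D14 sample of cow 7965 there was 1 call for D25 vs. D3 (PFKM, FDR = 0.048). HK2 was gained for D7 vs. D-3 (FDR = 0.031), ALDOC was lost for D14 vs. D-3 (FDR = 0.072). Without the 5 cows of high milk protein share at D-3 the counts were 0 for D3, D7, D14 and D25 vs. D-3 and for D7 vs. D3. HK2 then turned to 0.048 for D3 vs. D-3, and for D25 vs. D-3 HK2 turned to 0.17, B4GALT1 to 0.074, PFKM to 0.18, ALDOC to 0.52 and PDHA1 to 0.061.

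With each cow left out in turn, D3 vs. D-3 kept 7 calls, D7 vs. D3 had 0 to 2 and D25 vs. D-3 4 or 5. PFKM for D7 vs. D3 (0.44 to 0.61) was lost without cow 8314, 8564, 8603, 8647 or 8660, and ALDOC (0.96 to 1.47) was gained without cow 8686. HK2 for D25 vs. D-3 (-0.86 to -0.59) was lost without cow 8541, 8564, 8647 or 8713. SLC2A1 for D7 vs. D3 ran from -0.0096 to 0.19. The mean change of the B4GALT1 to LALBA ratio ran from -0.81 to 0.51 for D7 vs. D3 and from -0.42 to 0.21 for D25 vs. D14. The number of cows limits what could be seen between HT and CL.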
